A study of Mus musculus with 16 samples.

Results

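The genes described here are 40 genes of mitochondrial and peroxisomal fatty acid oxidation, ketone body metabolism and the target set of PPAR-alpha, among 41740 gene names counted in the ileum of diabetic mice. They were listed by name, with earlier results of these data known, and all 40 were among the 15267 genes that passed the filter on low counts. RNA-seq of ileal whole wall was made from 16 male STAM mice, a model in which a low dose of streptozotocin at 2 days of age and a high-fat diet from 4 weeks give diabetes. The Control-STAM-nonINS group (n = 4) carried floxed Insr alleles without Villin-Cre and received no insulin. The Control-STAM-INS group (n = 6) had the same genotype and received subcutaneous insulin degludec, a long-acting insulin, 2 times a day from 6 weeks at up to 12 U/kg. The ieIRKO-STAM-INS group (n = 6) received the same insulin and carried Villin-Cre, which drives recombination in intestinal epithelium, with the floxed Insr alleles. All 3 groups thus shared streptozotocin, the diet, the floxed alleles and sampling at 20 weeks of age.

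Fatty acids are activated to acyl-CoA, carried into mitochondria on carnitine and shortened by rounds of beta-oxidation. Part of the electrons of each round leave through acyl-CoA dehydrogenases and the electron transfer flavoprotein. Peroxisomes shorten fatty acids that mitochondria handle poorly, and surplus acetyl-CoA can leave as ketone bodies. PPAR-alpha is a nuclear receptor that binds fatty acids and, with RXR, activates genes of every one of these steps. In fasting and untreated diabetes such genes are known to run high in liver, and enterocytes of the small intestine hold the same machinery.

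Library totals ran from 13288018 to 22215382 counts. Levels are given as CPM, counts scaled to a common library total with TMM factors, and each library is 1 mouse sample. Insr, the targeted gene, measured 105 ± 12.2 CPM (SD, n = 4) in Control-STAM-nonINS, 62.7 ± 10.1 (n = 6) in Control-STAM-INS and 67.2 ± 13.3 (n = 6) in ieIRKO-STAM-INS. The counts cover the whole gene in whole wall, which also holds cells that Villin-Cre does not reach, and no difference between the last 2 groups passed the test (log2 fold change 0.10, SE 0.13, adjusted p = 0.805, 95% interval -0.16 to 0.37). These counts therefore do not check the deletion in the epithelium, and the third group is named by its label. Insr was itself lower with insulin in the control genotype (log2 fold change -0.75, SE 0.14, adjusted p = 0.00275). Enterocyte markers (9 of 9 tested, 0 called in any comparison) summed to 19030 to 32310, 21450 to 31830 and 9116 to 34900 CPM in the 3 groups, with ieIRKO-STAM-INS replicate 5 lowest. In ieIRKO-STAM-INS replicates 2 and 3 the B cell genes Cd79a, Cd79b and Ms4a1 averaged 6.46 and 5.75 on the log2 CPM scale, against 1.86 to 3.64 in the other libraries, and the counts of members are given with and without these 2 libraries.

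Insulin treatment of the control genotype was compared first. Of the 40 members, 17 were lower in insulin-treated than in untreated controls and 0 were higher, at an adjusted p under 0.05 over all genes tested. This is 42.5% of the members, where 6.76% of all genes tested were lower and 3.73% higher (10.5% in either direction). At an unadjusted p under 0.05, 26 were lower and 0 higher, against 14.5% and 10.8% of all genes (25.4% in either direction). The fall reached from 1.19-fold in Decr1 to 9.20-fold in Acaa1b. The median log2 fold change was -0.47 over the 40 members and -0.0043 over all genes, and 37 of 40 members lay below 0, against 50.6% of all genes. In 22 members every insulin-treated library was below every untreated library, which 6.23% of all genes showed, and in 0 was every treated library above, which 4.40% showed. Without ieIRKO-STAM-INS replicates 2 and 3, a choice made after seeing the data and one that enters here only through the filter, the scaling and the shared estimate of spread, 16 members were lower (all but Decr1), where 6.29% of all genes were. In the same fit 26 were lower at an unadjusted p (14.1% of all genes), 21 were lower without overlap (5.85%) and 37 lay below 0 (48.7%). T cell markers moved the other way, with 3 of 4 higher with insulin and summed levels of 12.3 to 22.6 CPM untreated, 20.6 to 35.8 in treated controls and 21.7 to 51.4 in the ieIRKO group. Paneth cell markers also were higher with insulin at 2 of 5 (median log2 fold change 0.43), with sums of 3587 to 6106 CPM untreated and 5033 to 9084 in treated controls. Lower were 1 of 6 markers of epithelium in general and Cela1, the only 1 of 6 acinar markers that passed the filter. The acinar markers Cela2a, Cpa1, Pnlip and Amy2a5 had no count in any library. The part of these cell types in the members' values was not tested. In bulk tissue, fewer cells that express these genes and less RNA per cell cannot be told apart.

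By role, both genes of fatty acid activation fell, both acyl-CoA thioesterases, 4 of 8 of mitochondrial beta-oxidation, 3 of 5 auxiliary enzymes for unsaturated fatty acids, 3 of 6 PPAR-alpha targets outside oxidation, 2 of 5 peroxisomal members and 1 of 3 of the electron transfer flavoprotein. None of the 4 carnitine shuttle genes, the 2 ketone body enzymes or the 3 regulators passed.

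**Figure D1:**
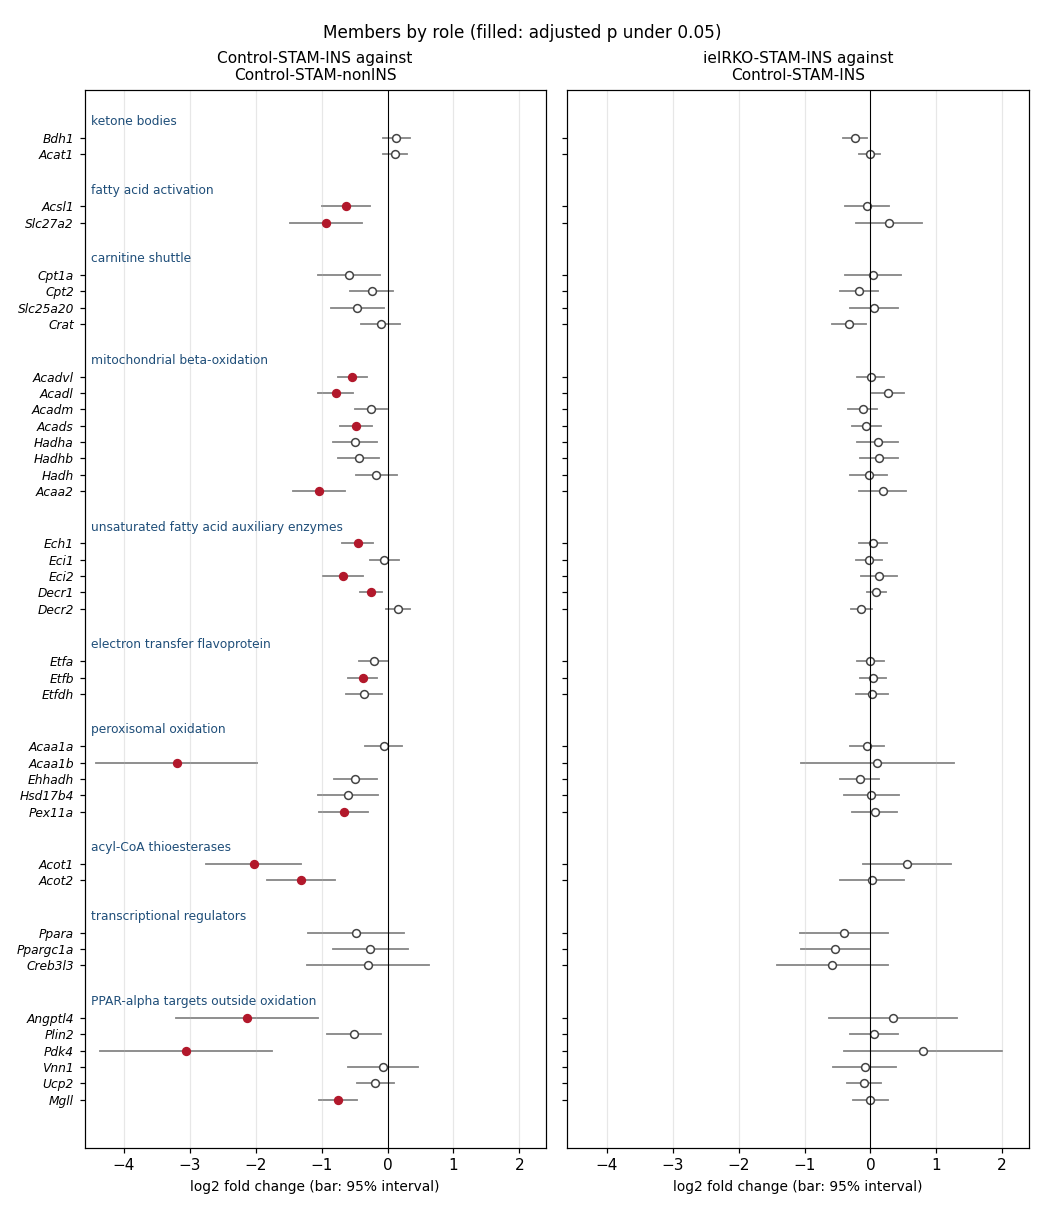
Log2 fold change of the 40 members, grouped by role, for insulin in the control genotype (left) and for ieIRKO-STAM-INS against treated controls (right); points are edgeR estimates, bars are 95% intervals (SE times the t quantile of the test's residual degrees of freedom) and filled points have an adjusted p under 0.05. On the left 17 points are filled, all below 0, and on the right 0 are filled.

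Peroxisomal oxidation held the member with the largest fold. Acaa1b, one of the pair of mouse peroxisomal 3-ketoacyl-CoA thiolases, lies at chr9:119148023-119157093 (GRCm38). It measured 33.2, 34.7, 60.4 and 115 CPM in the 4 untreated libraries. Insulin-treated controls measured 1.32 to 10.6 with a median of 6.26. The groups did not overlap and the lowest untreated library stood above the highest treated one (log2 fold change -3.20, SE 0.57, adjusted p = 0.0036, exact permutation p = 0.00476, the smallest that 4 against 6 libraries allow). Its paralog Acaa1a, with a longest transcript 96.6% identical over the 1428 aligned bases, measured 252 ± 35.3 CPM (SD, n = 4) without insulin and 242 ± 26.5 (n = 6) with it (log2 fold change -0.06, SE 0.13, adjusted p = 0.832). Of the 100-base windows of the 2 transcripts, 21.6% of those of Acaa1a and 22.6% of those of Acaa1b are shared word for word, so reads can be split between them in counting, and both values carry that uncertainty. Pex11a, a membrane protein of peroxisome division, measured 58.4, 59.04, 58.4 and 49.9 CPM untreated and 27.7 to 48.9 with a median of 34.3 with insulin, without overlap (log2 fold change -0.67, SE 0.18, adjusted p = 0.0228). Its call was lost without Control-STAM-nonINS replicate 1 or 3 or Control-STAM-INS replicate 5, with adjusted p from 0.0524 to 0.0663. Ehhadh, the peroxisomal bifunctional enzyme of the L-specific path, and Hsd17b4, that of the D-specific path, missed the threshold (Ehhadh 96.9 ± 7.26 against 69.2 ± 8.97 CPM, adjusted p = 0.0535; Hsd17b4 213 ± 27.1 against 140.5 ± 38.4 CPM, adjusted p = 0.0896).

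Both acyl-CoA thioesterases, which release free fatty acids from acyl-CoA, fell. Acot1, the cytosolic enzyme, measured 23.8, 16.9, 17.8 and 21.4 CPM untreated and 3.26 to 7.001 with a median of 4.39 with insulin. Acot2, its mitochondrial counterpart, measured 16.4, 14.04, 20.4 and 17.9 CPM untreated and 4.67 to 9.10 with a median of 6.71 with insulin. In neither gene did any treated library reach an untreated one. Acot1 was 4.10-fold lower (log2 SE 0.34, adjusted p = 0.00164) and Acot2 2.48-fold lower (log2 SE 0.25, adjusted p = 0.00307), and each kept its call with any 1 library left out. The genes are neighbours on chromosome 12, Acot2 at chr12:83987861-83993873 and Acot1 at chr12:84009490-84018371 (GRCm38). Their longest transcripts are 94.3% identical over 1330 aligned bases and share 16.5% of the 100-base windows of Acot1 and 17.1% of those of Acot2, so part of the reads of one may have been counted for the other.

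Among PPAR-alpha targets outside oxidation, Pdk4, Angptl4 and Mgll fell. Pdk4, a kinase that shuts pyruvate dehydrogenase and so spares glucose, measured 130.2, 99.1, 110.3 and 84.4 CPM untreated and 3.71 to 30.2 with a median of 10.8 with insulin (log2 fold change -3.07, SE 0.61, adjusted p = 0.0065, exact permutation p = 0.00476). Control-STAM-INS replicate 2 was the highest treated library and lay well below the lowest untreated one. In a fit with replicate number added as a block the Pdk4 call was lost (adjusted p = 0.0766). Angptl4, a secreted inhibitor of lipoprotein lipase, measured 286, 256, 259 and 96.5 CPM untreated and 37.3 to 74.5 with a median of 48.7 with insulin (log2 fold change -2.13, SE 0.50, adjusted p = 0.0166). Here Control-STAM-nonINS replicate 4 sat far below the 3 other untreated libraries and still above every treated one. Without Control-STAM-nonINS replicate 1 the adjusted p was 0.052. Mgll, which cleaves monoglycerides, measured 57.1, 37.01, 55.8 and 78.8 CPM untreated and 30.7 to 36.3 with a median of 34.3 with insulin (log2 fold change -0.75, SE 0.14, adjusted p = 0.00222). Its treated libraries lay close together and the untreated ones spread widely, without overlap.

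The remaining targets did not pass. Plin2, a coat protein of lipid droplets, measured 119 ± 11.3 CPM (SD, n = 4) untreated and 83.1 ± 14.8 (n = 6) with insulin without overlap, at an adjusted p of 0.0995. Ucp2, a mitochondrial carrier, measured 456 ± 79.9 and 401 ± 31.2 CPM (adjusted p = 0.424), and Vnn1, a pantetheinase, 170.1 ± 26.3 and 162 ± 42.7 CPM (adjusted p = 0.894). Fat cells also express several of these targets. Adipocyte markers (7 of 7 tested, 0 called) summed to 90.8 to 352 CPM untreated, 57.0 to 254 in treated controls and 33.1 to 164 in the ieIRKO group. Their median log2 fold change with insulin was -0.74, with Lep (3.55) and Adrb3 (0.18) above 0. The part of adipocytes in the result was not tested.

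**Figure D2:**
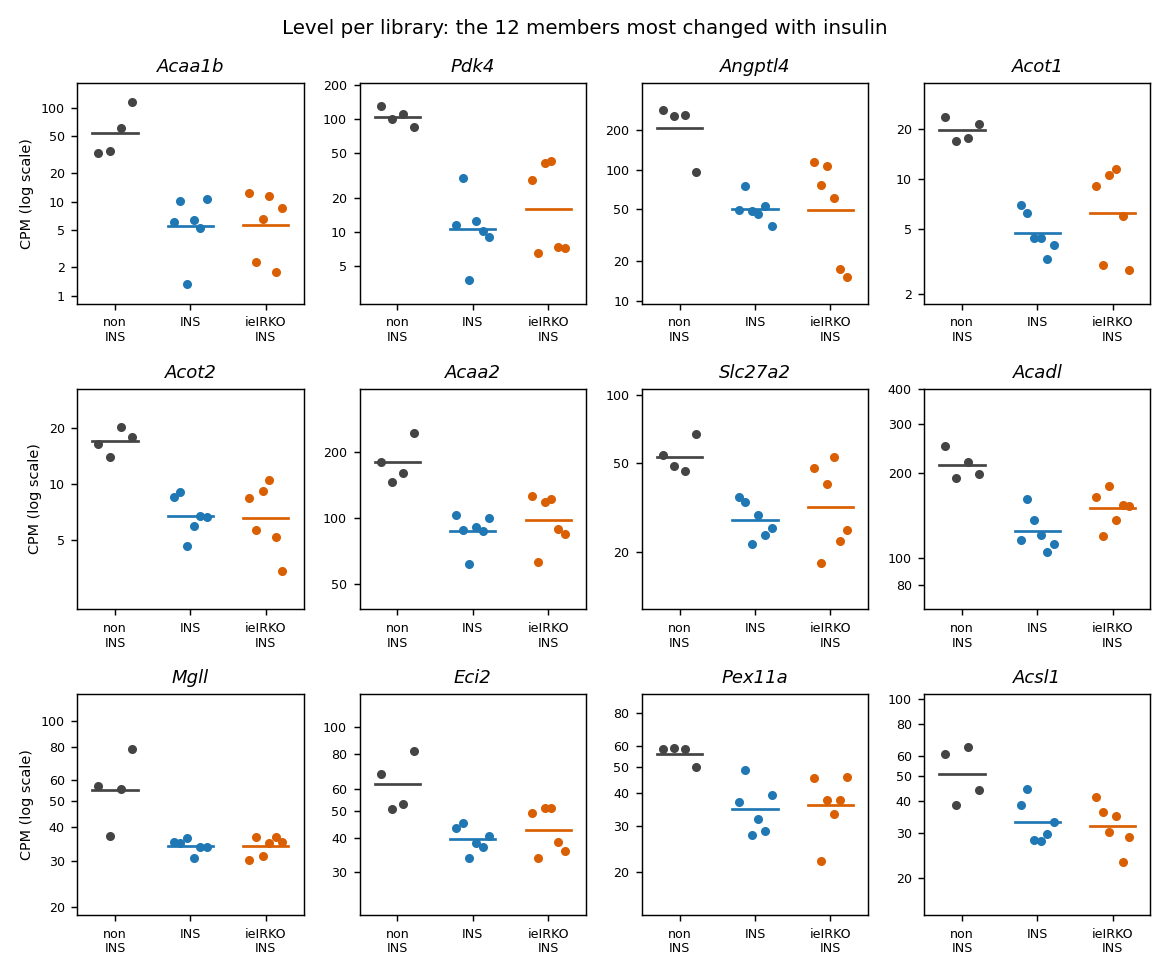
CPM on a log axis in each library for the 12 members with the largest fold change among those that passed in the insulin comparison; each point is 1 library (4, 6 and 6 per group), and lines are geometric means. Without insulin the 4 points lie above all 6 Control-STAM-INS points in 11 of the 12 genes, the exception being Acsl1.

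Fatty acid activation was lower at both genes. Slc27a2, an acyl-CoA synthetase for very long chains that also takes up fatty acids, measured 53.8, 48.2, 45.9 and 66.9 CPM untreated and 21.7 to 35.1 with a median of 27.4 with insulin, without overlap (log2 fold change -0.93, SE 0.26, adjusted p = 0.0326). Acsl1, a long-chain acyl-CoA synthetase, measured 60.7, 38.5, 65.05 and 44.1 CPM untreated and 27.9 to 44.6 with a median of 31.5 with insulin (log2 fold change -0.63, SE 0.18, adjusted p = 0.03, exact permutation p = 0.0286). Of the 17 members that fell, Acsl1 was the one whose groups overlapped. Both calls were near the threshold. That of Slc27a2 was lost without Control-STAM-nonINS replicate 1 or 4 or any of Control-STAM-INS replicates 3 to 6 (adjusted p 0.0553 to 0.102), and that of Acsl1 without Control-STAM-nonINS replicate 1 or 3 or any of the same 4 treated replicates (0.0547 to 0.109).

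The carnitine shuttle did not pass at any of its 4 genes. Cpt1a, the rate-limiting step of entry into mitochondria, measured 262, 231, 214 and 222 CPM untreated and 113 to 188 with a median of 160.0 with insulin. These groups did not overlap and the exact permutation p was 0.0143, yet the adjusted p over all genes was 0.103 (log2 fold change -0.59, SE 0.22). Slc25a20, the carnitine-acylcarnitine translocase, measured 153 ± 37.7 against 111 ± 18.3 CPM and Cpt2, the inner membrane transferase, 133 ± 25.5 against 113 ± 12.6 CPM (adjusted p = 0.134 and 0.359). Crat, which moves short acyl groups between carnitine and CoA, measured 59.9, 72.4, 82.9 and 59.4 CPM untreated and 54.8 to 69.00 with a median of 64.5 with insulin (adjusted p = 0.691).

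In mitochondrial beta-oxidation all 8 log2 fold changes were below 0 and 4 passed. Acaa2, the thiolase that releases acetyl-CoA, measured 179.9, 146, 159 and 242 CPM untreated and 61.3 to 102 with a median of 89.4 with insulin (log2 fold change -1.05, SE 0.19, adjusted p = 0.00249). Acadl, the long-chain acyl-CoA dehydrogenase, measured 251, 193, 220.2 and 199 CPM untreated and 105 to 162 with a median of 118 with insulin (log2 fold change -0.78, SE 0.13, adjusted p = 0.000947). Neither pair of groups overlapped, and both calls held with any 1 library left out. Acadvl, the very-long-chain dehydrogenase, went from 228 ± 15.2 to 157 ± 14.98 CPM and Acads, the short-chain one, from 146 ± 17.3 to 105 ± 8.19 (adjusted p = 0.00408 and 0.0126), again without overlap. The medium-chain dehydrogenase Acadm measured 164 ± 2.30 and 138 ± 13.4 CPM and did not pass (adjusted p = 0.18), although its groups did not overlap. Hadha and Hadhb, the subunits of the trifunctional protein, and Hadh, the short-chain hydroxyacyl-CoA dehydrogenase, had log2 fold changes of -0.49, -0.44 and -0.17, with adjusted p of 0.0597, 0.0692 and 0.51.

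Auxiliary enzymes, which reposition double bonds so that unsaturated fatty acids can enter the cycle, were lower at Eci2, Ech1 and Decr1. Eci2, an enoyl-CoA isomerase, measured 67.6, 50.9, 52.7 and 82.00 CPM untreated and 33.9 to 45.1 with a median of 39.4 with insulin, without overlap (log2 fold change -0.68, SE 0.14, adjusted p = 0.0061). Ech1, a dienoyl-CoA isomerase, went from 185 ± 15.6 to 135 ± 16.8 CPM (adjusted p = 0.0161). Decr1, the mitochondrial 2,4-dienoyl-CoA reductase, went from 97.3 ± 4.47 to 81.8 ± 5.96 CPM (adjusted p = 0.0447), and this call was lost without any 1 untreated library or without Control-STAM-INS replicate 1, 3, 4 or 5 (adjusted p 0.053 to 0.13). Eci1, the mitochondrial counterpart of Eci2, measured 47.3 ± 3.20 and 45.8 ± 5.66 CPM, and the peroxisomal reductase Decr2 41.2 ± 3.79 and 46.03 ± 2.81 CPM (adjusted p = 0.83 and 0.258). Decr2 had the highest log2 fold change of all members, 0.16.

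Of the electron transfer flavoprotein, which passes electrons from the dehydrogenases to the respiratory chain, Etfb fell from 163 ± 11.6 to 126 ± 11.2 CPM (log2 fold change -0.38, SE 0.10, adjusted p = 0.0258). That call was lost without Control-STAM-nonINS replicate 3 or Control-STAM-INS replicate 3, 4 or 5 (adjusted p 0.0515 to 0.0929). Etfa, the partner subunit, measured 193 ± 19.1 and 167 ± 18.2 CPM and Etfdh, the flavoprotein's oxidoreductase, 111 ± 8.44 and 86.7 ± 8.42 CPM, with adjusted p of 0.226 and 0.0803.

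Neither ketone body enzyme among the members passed. Bdh1, which interconverts acetoacetate and beta-hydroxybutyrate, measured 116, 88.8, 96.1 and 86.3 CPM untreated and 94.1 to 122 with a median of 105 with insulin (log2 fold change 0.13, SE 0.10, adjusted p = 0.405). Acat1, the mitochondrial acetoacetyl-CoA thiolase, measured 97.2, 75.8, 90.4 and 83.5 CPM untreated and 88.5 to 101 with a median of 93.6 with insulin (log2 fold change 0.11, SE 0.09, adjusted p = 0.459). Both had positive log2 fold changes with overlapping groups.

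The regulators did not pass either. Ppara, the receptor itself, measured 30.3, 18.7, 16.7 and 25.3 CPM untreated and 7.19 to 22.9 with a median of 16.6 with insulin (log2 fold change -0.48, SE 0.34, adjusted p = 0.418, 95% interval -1.20 to 0.25). Ppargc1a, a coactivator of mitochondrial genes, measured 60.1, 41.7, 35.1 and 25.9 CPM untreated and 27.2 to 44.2 with a median of 32.4 with insulin (log2 fold change -0.26, SE 0.27, adjusted p = 0.59, interval -0.84 to 0.31). Creb3l3, a membrane-bound transcription factor of liver and intestine that acts with PPAR-alpha, measured 222, 334, 357 and 167 CPM untreated and 123 to 358 with a median of 222 with insulin (log2 fold change -0.30, SE 0.43, adjusted p = 0.725, interval -1.23 to 0.63). The groups overlapped in all 3 genes, and each interval held 0 and reached well below it, so a lower level with insulin was neither shown nor bounded closely at this number of libraries.

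**Figure D3:**
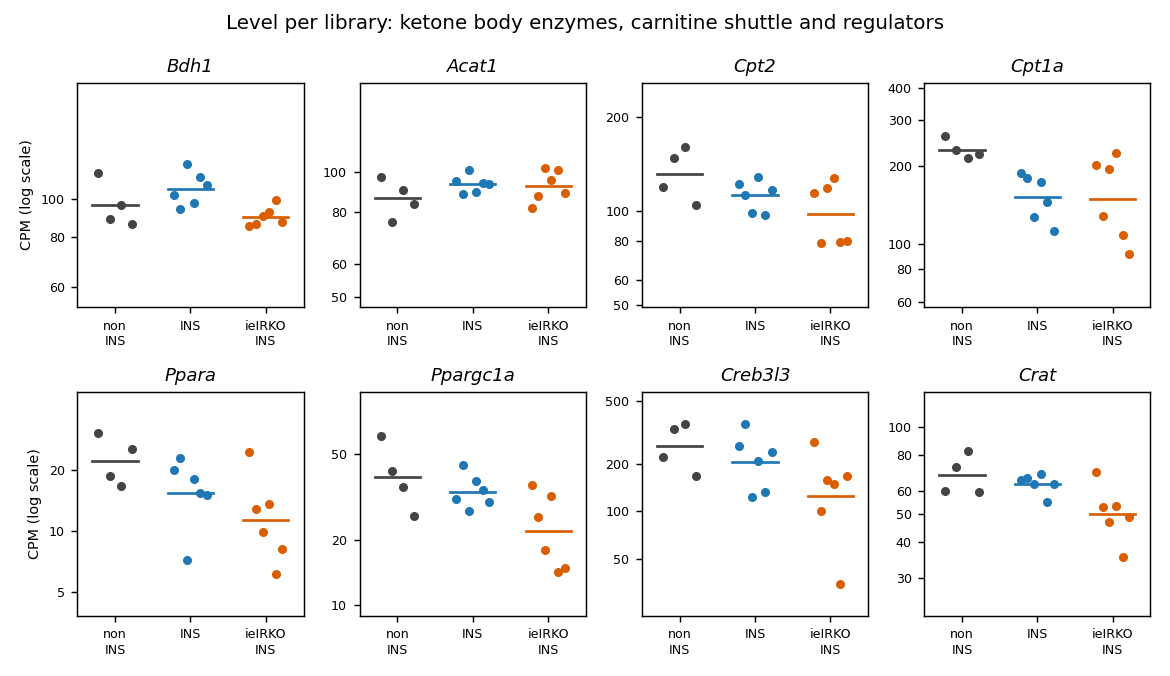
CPM on a log axis in each library for the ketone body enzymes, Cpt2, Cpt1a, Crat and the regulators; each point is 1 library in replicate order and lines are geometric means. All 4 untreated points of Cpt1a lie above the 6 Control-STAM-INS points, while Bdh1 and Acat1 overlap in all 3 groups.

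Other genes of these pathways that are not members were read from a list of 54, of which 47 passed the filter. With insulin 5 were lower (10.6%, where 6.76% of all genes were) and 2 higher (4.26%, close to the 3.73% of all genes), and the median log2 fold change over the 47 was -0.11. Fabp1, a fatty acid binding protein of liver and intestine, measured 38.2, 78.8, 115 and 109 CPM untreated and 2.52 to 25.5 with a median of 13.8 with insulin (log2 fold change -2.58, SE 0.57, adjusted p = 0.0117). Retsat, a retinol saturase, was 2.64-fold lower, Acacb, which makes the malonyl-CoA that inhibits carnitine transfer, 2.12-fold, Slc27a1, a fatty acid transporter, 1.80-fold and Phyh, the peroxisomal phytanoyl-CoA hydroxylase, 1.41-fold (adjusted p = 0.000708, 0.0102, 0.00102 and 0.0138). Oxct1, which lets tissues burn ketone bodies, was higher, with 156, 194, 152 and 61.4 CPM untreated and 199.6 to 315 with a median of 244 with insulin (log2 fold change 0.82, SE 0.23, adjusted p = 0.0311). Nudt19, a peroxisomal CoA hydrolase, was higher by a log2 fold change of 0.34 (adjusted p = 0.0492). The count of 2 higher genes became 0 without Control-STAM-nonINS replicate 1 or 3 or Control-STAM-INS replicate 1, 3 or 5, 1 without any other library of these groups but Control-STAM-nonINS replicate 2, and 4 without that one, while the share of all genes that were higher ran from 1.58% to 4.69% over the same fits.

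The libraries were then compared across the members that fell. For each of the 17 genes the highest of the 16 libraries was an untreated one, Control-STAM-nonINS replicate 4 in 7 genes, replicate 1 in 5, replicate 3 in 4 and replicate 2 in 1. The lowest library was ieIRKO-STAM-INS replicate 2 in 7 genes, and Control-STAM-INS replicate 3 and ieIRKO-STAM-INS replicate 6 in 3 each. Relative to the Control-STAM-INS mean, the median over the 17 genes ran from 0.64 to 0.94 log2 units in the 4 untreated libraries, from -0.17 to 0.26 in treated controls and from -0.32 to 0.32 in the ieIRKO group. These medians describe genes chosen for their difference between the first 2 groups.

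**Figure D4:**
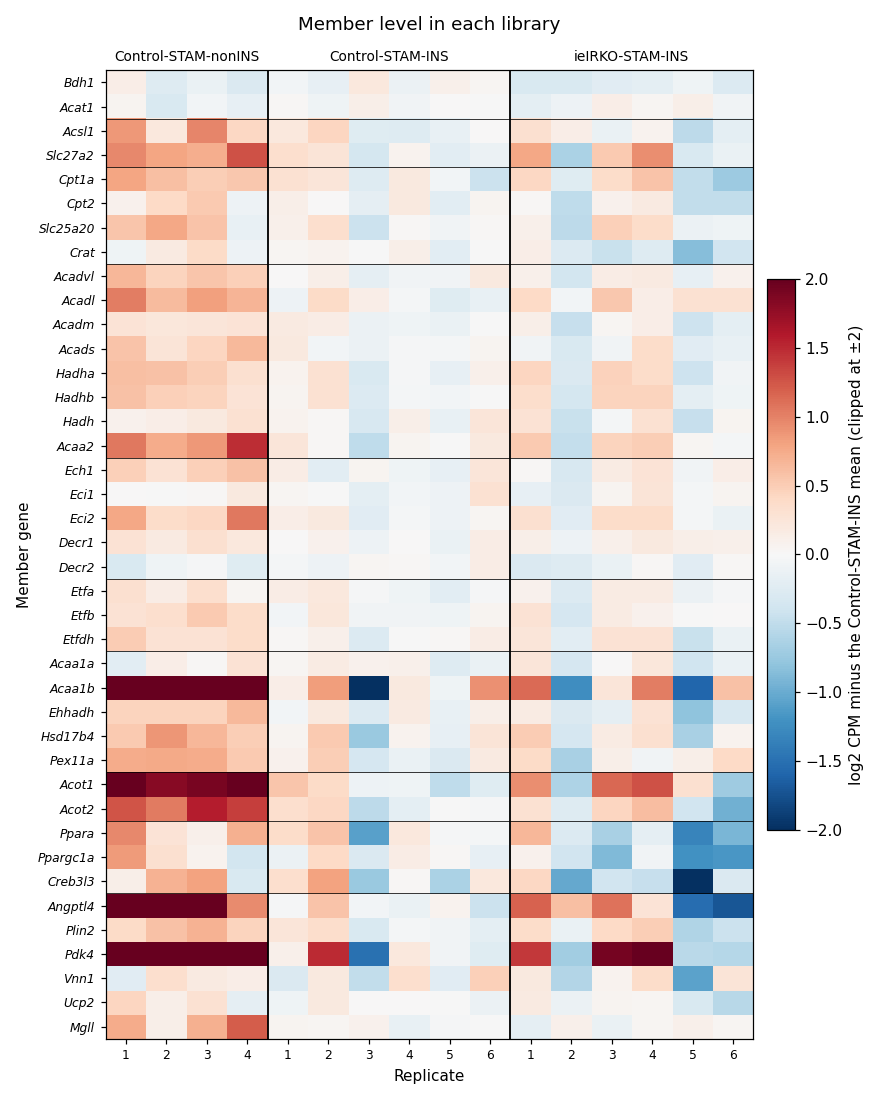
Level of each member (rows, grouped by role) in each library (columns), as log2 CPM minus the mean of the Control-STAM-INS libraries; red is above and blue below that mean, and colours stop at 2 log2 units. The untreated libraries are red in most rows, most of all in Acaa1b, Acot1, Pdk4 and Angptl4.

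Levels of different genes were compared per kilobase of exon (union of exons in GENCODE M21, a quantity that depends on the annotation). Without insulin Etfb stood highest of the 40 members at 140.3 ± 9.99 CPM per kilobase (SD, n = 4), followed by Acaa2 at 120.0 ± 28.1 and Acadl at 108 ± 13.1, neighbours whose ranges of mean ± SD meet. Acsl1 was lowest at 4.97 ± 1.22, beside Acot1 at 5.10 ± 0.828. With insulin Etfb was still first at 108 ± 9.61, and Hadh and Etfa followed at 94.3 ± 12.4 and 91.1 ± 9.91. Acot1 was then last at 1.24 ± 0.364, and Acaa1b had gone from rank 21 to rank 37 and Pdk4 from rank 24 to rank 36 among the 40. Ppara, at 5.93 ± 1.63 without and 4.27 ± 1.41 with insulin, was among the 6 lowest members in both groups.

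PPAR-alpha with RXR binds direct repeats of AGGTCA with 1 base between, so promoters of 4 members that fell with insulin are shown with their closest match to AGGTCANAGGTCA. RefSeq windows (GRCm38.p6, 250 bases before to 50 after the gene start) were found for 33 members, in 37 windows, and both strands were searched for the window's best match over the 12 fixed bases. The best of the 37 matched 10 of 12 bases, in 4 windows (10.8%), those of Creb3l3, Etfa, Plin2 and Slc25a20, none of which passed with insulin, where 3.86% of all 32851 windows match at least 10. At least 9 bases matched in 27% of the members' windows and 24.6% of all, and AGGTCA alone stood in 16.2% and 16.3%. No window was found for Acat1, Crat, Acaa2, Decr1, Hsd17b4, Angptl4 and Vnn1. The sequences are those of the closest matches among the 10 of the 12 most changed members that have a window, Acot2 and Slc27a2, and of the 2 members with the largest folds, Acaa1b and Pdk4, written 5′ to 3′ on the gene's strand, with the best match in capitals.
Acot2, chr12:83987611-83987910, + strand: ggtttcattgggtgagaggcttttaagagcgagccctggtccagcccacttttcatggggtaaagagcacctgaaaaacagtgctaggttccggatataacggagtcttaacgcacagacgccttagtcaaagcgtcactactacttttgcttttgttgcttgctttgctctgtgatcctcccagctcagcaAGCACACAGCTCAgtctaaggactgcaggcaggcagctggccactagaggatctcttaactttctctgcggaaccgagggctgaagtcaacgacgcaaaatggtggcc
Slc27a2, chr2:126552774-126553073, + strand: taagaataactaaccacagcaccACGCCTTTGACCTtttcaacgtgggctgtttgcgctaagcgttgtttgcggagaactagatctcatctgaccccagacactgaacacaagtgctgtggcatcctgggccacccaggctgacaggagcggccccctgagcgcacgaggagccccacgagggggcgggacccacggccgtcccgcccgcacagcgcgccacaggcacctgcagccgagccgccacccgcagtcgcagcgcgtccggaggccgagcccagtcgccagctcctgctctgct
Acaa1b, chr9:119157044-119157343, - strand: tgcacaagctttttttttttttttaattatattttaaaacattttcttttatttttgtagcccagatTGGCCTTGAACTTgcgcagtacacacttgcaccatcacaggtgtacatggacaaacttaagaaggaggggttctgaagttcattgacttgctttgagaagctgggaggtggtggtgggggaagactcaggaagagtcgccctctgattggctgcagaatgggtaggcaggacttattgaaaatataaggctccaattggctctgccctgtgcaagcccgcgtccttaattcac
Pdk4, chr6:5496229-5496528, - strand: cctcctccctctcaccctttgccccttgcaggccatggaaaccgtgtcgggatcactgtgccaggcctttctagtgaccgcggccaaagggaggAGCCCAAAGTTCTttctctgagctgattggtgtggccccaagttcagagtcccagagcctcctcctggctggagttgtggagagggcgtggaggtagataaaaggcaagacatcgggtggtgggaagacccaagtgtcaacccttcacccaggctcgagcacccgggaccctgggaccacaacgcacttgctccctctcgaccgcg
The match covers 9 of 12 bases in Acot2, from 58 to 46 bases before the start, and 9 of 12 in Slc27a2, from 227 to 215 before it on the opposite strand. It covers 8 of 12 in Acaa1b and in Pdk4, which 79.8% of all windows reach. A match is a description of these letters only, and elements farther from the start lie outside the windows.

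The genotype label was compared under insulin, ieIRKO-STAM-INS against Control-STAM-INS. No member passed by edgeR's test in either direction, where 0.183% of all genes tested were lower and 0.0393% higher (0.223% in either direction). DESeq2 also called 0 members, where it called 0.38% of all genes lower and 0.426% higher. At an unadjusted p under 0.05, Bdh1, Crat and Ppargc1a were 3 members on the lower side and Acadl 1 on the higher side, against 3.90% and 7.38% of all genes (11.3% together). The median log2 fold change was 0.01 over the 40 members and 0.02 over all genes, and 18 of 40 members lay below 0, against 46.2% of all genes. In 0 members were the groups apart, where 0.406% of all genes were apart with lower and 0.439% with higher values. With ieIRKO-STAM-INS replicates 2 and 3 left out, again 0 members passed, where 0.118% of all genes were lower and 0.0328% higher. In the same fit 1 member was lower and 1 higher at an unadjusted p (2.8% and 3.82% of all genes), 0 were without overlap (0.76% lower and 1.01% higher) and 17 lay below 0 (49.6%). Paneth cell markers were lower at 4 of 5 in this comparison (median log2 fold change -1.38), or 3 of 5 without replicates 2 and 3, and their part in the members' values was not tested.

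The 3 smallest p-values belonged to Bdh1, Crat and Acadl. Bdh1 measured 85.3 to 99.4 with a median of 88.8 CPM in ieIRKO-STAM-INS beside the Control-STAM-INS values above (log2 fold change -0.24, SE 0.09, adjusted p = 0.321, exact permutation p = 0.00866), and 5 of the 6 ieIRKO-STAM-INS libraries lay below the lowest of the other group. Crat measured 35.3 to 69.7 with a median of 50.7 (log2 fold change -0.32, SE 0.13, adjusted p = 0.355, exact permutation p = 0.0325), with replicate 1 above and the other 5 below every Control-STAM-INS library. Acadl measured 119.6 to 180.2 with a median of 153 (log2 fold change 0.27, SE 0.12, adjusted p = 0.383, exact permutation p = 0.0584). None of the 3 passed after adjustment over all genes.

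The members that fell most with insulin spread widely among the ieIRKO-STAM-INS libraries, and Pdk4 and Acaa1b did so among treated controls too. Their SD was 77.9% and 62.6% of the mean in ieIRKO-STAM-INS and 70.7% and 51.5% in Control-STAM-INS. For Angptl4 and Acot1 it was 65.2% and 52.9% against 24.4% and 29.35%. In ieIRKO-STAM-INS Pdk4 measured 28.6, 6.54, 40.4, 42.6, 7.29 and 7.17 CPM in replicates 1 to 6, high in replicates 1, 3 and 4 and low in 2, 5 and 6. Its difference from Control-STAM-INS was 0.80 on the log2 scale, with an interval of -0.39 to 2.00. Angptl4 measured 114, 76.4, 106, 60.6, 17.4 and 15.2 CPM, lowest in replicates 5 and 6, and the interval of its difference was -0.63 to 1.32. Acot1 measured 9.06, 3.03, 10.6, 11.5, 5.93 and 2.82 and Acaa1b 12.4, 2.29, 6.59, 11.5, 1.78 and 8.46 CPM, with intervals of -0.12 to 1.22 and -1.05 to 1.26. For these 4 genes the intervals reach past 1 log2 unit above 0. Tighter intervals were found for Acot2 (3.41 to 10.5 with a median of 7.05 CPM, interval of the difference -0.46 to 0.50), Acaa2 (62.5 to 125 with a median of 104 CPM, interval -0.17 to 0.55), Eci2 (33.8 to 51.1 with a median of 43.9 CPM, interval -0.15 to 0.40) and Mgll (30.03 to 36.7 with a median of 35.1 CPM, interval -0.26 to 0.26). Slc27a2 measured 17.8 to 52.9 with a median of 32.6 CPM, Acsl1 23.02 to 41.5 with a median of 32.5 and Pex11a 22.1 to 45.9 with a median of 37.7, with adjusted p of 0.685, 0.922 and 0.907.

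For the regulators, Ppara measured 6.08 to 24.4 with a median of 11.3 CPM in ieIRKO-STAM-INS, Ppargc1a 14.3 to 35.7 with a median of 21.8 and Creb3l3 34.8 to 273 with a median of 153. Their log2 fold changes were -0.39, -0.54 and -0.58, with adjusted p of 0.668, 0.426 and 0.615. In Ppara, Ppargc1a and Creb3l3 alike, replicate 5 was the lowest library of its group and replicate 1 the highest. Replicate 5 was also the lowest of all 16 libraries in the enterocyte marker sum, whose part in these values was not tested. Cpt1a measured 91.7 to 225 with a median of 162 CPM and Acat1 81.8 to 102 with a median of 92.2 (adjusted p = 0.963 and 0.966). Of the 47 other genes of the pathways 0 passed by edgeR's test, and 0 had an unadjusted p under 0.05.

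Against the untreated group, ieIRKO-STAM-INS differs in both genotype label and insulin, and this comparison shares its 4 control libraries with the insulin comparison above. Of the 40 members 18 were lower and 0 higher, where 7.59% of all genes were lower and 5.74% higher (13.3% together). At an unadjusted p under 0.05, 28 were lower and 0 higher, against 14.7% of all genes each way (29.4% together). Below 0 lay 38 of 40, against 48.9% of all genes, and the median log2 fold change was -0.49 against 0.0088 over all genes. In 13 members every ieIRKO-STAM-INS library lay below the untreated ones, as in 4.76% of all genes, and in 0 above, as in 3.80%. Without ieIRKO-STAM-INS replicates 2 and 3 the count of lower members was 12, where 4.87% of all genes were lower. In the same fit 25 were lower at an unadjusted p (12.7% of all genes), 15 were lower without overlap (6.35%, also above the share with all libraries) and 38 lay below 0 (49.5%). The count of lower members was 8 without Control-STAM-nonINS replicate 1, where the share of all genes that were lower also fell, to 4.45%. It was 11 without Control-STAM-nonINS replicate 3, where 5.31% of all genes were lower. In this comparison 3 of 4 T cell markers were higher (median log2 fold change 1.66), 3 of 5 Paneth cell markers lower (median -0.57) and 3 of 6 B and plasma cell markers higher (median 1.95). Without ieIRKO-STAM-INS replicates 2 and 3 these counts were 3 (median 1.33), 2 (median -0.49) and 2, and the B and plasma cell median was 0.54. Cela1, the only acinar marker tested, was lower (log2 fold change -0.84, or -0.83 without these 2 libraries). Adipocyte markers had 0 calls and a median of -0.38, or -0.83 without these 2 libraries. The part of these cell types in the members' values was not tested.

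Side by side, with Control-STAM-nonINS as reference in each, Acaa1b had log2 fold changes of -3.20 in treated controls and -3.10 with the ieIRKO label, Pdk4 -3.07 and -2.27, Angptl4 -2.13 and -1.79, and Acot1 -2.03 and -1.48. Ehhadh, Acadm and Crat passed in ieIRKO-STAM-INS (log2 fold changes -0.65, -0.37 and -0.43, adjusted p = 0.0113, 0.0408 and 0.0476), and Slc27a2 and Decr1 did not (-0.65 and -0.16, adjusted p = 0.107 and 0.178). The tests of ieIRKO-STAM-INS against Control-STAM-INS above, in which none of these 5 genes passed, are the tests of the difference between the treated groups. Without ieIRKO-STAM-INS replicates 2 and 3 the calls of Ehhadh, Acadm and Crat against the untreated group were lost (adjusted p = 0.0515, 0.1 and 0.13), and so were those of Ech1, Etfb and Pex11a (0.0618, 0.0957 and 0.0734). Ppargc1a, Ppara and Creb3l3 had log2 fold changes of -0.80, -0.87 and -0.88 against the untreated group, with adjusted p of 0.0603, 0.103 and 0.194.

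Of the 18 calls in this last comparison, 8 held with any 1 library left out, those of Acadvl, Acads, Acaa2, Acaa1b, Ehhadh, Acot1, Acot2 and Mgll. Of these, Ehhadh did not hold without the 2 libraries named above. Acaa1b did not hold in a fit with replicate number added as a block (adjusted p = 0.0542). Acadl and Pdk4 lost theirs without Control-STAM-nonINS replicate 1 (adjusted p = 0.0633 for each), Acsl1 without replicate 1 or 3 of that group (0.0681 to 0.0697), Eci2 without 1 or 4 (0.0594 to 0.069), Ech1 without 1, 3 or 4 (0.0511 to 0.0575) and Angptl4 without 1, 2 or 3 (0.0591 to 0.0865). Pex11a lost its call without Control-STAM-nonINS replicate 1, 2 or 3 or ieIRKO-STAM-INS replicate 3, 4 or 5 (0.0529 to 0.0837). Acadm lost its call without any 1 untreated library or ieIRKO-STAM-INS replicate 2, 5 or 6 (0.0655 to 0.0968), and Etfb without any 1 untreated library or ieIRKO-STAM-INS replicate 2, 4, 5 or 6 (0.05 to 0.125). Crat did so without Control-STAM-nonINS replicate 1, 2 or 3 or any of ieIRKO-STAM-INS replicates 2 to 6 (0.0586 to 0.174).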

How the data were processed

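Total RNA of ileal whole wall from 16 mice was sequenced with a directional kit. The authors made the deposited counts, whole numbers per gene and not normalized, with CLC Genomics Workbench on GRCm38, per the labels. The annotation, strand setting and treatment of reads that match several genes are not given in the sources used here, so paralogs and antisense neighbours may share reads. Groups were taken from the labels (n = 4, 6 and 6). The p-values of the fit below set a difference between groups against the spread between libraries. That spread was estimated over all 3 groups and moderated across genes.

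The 41740 gene names were filtered with filterByExpr (minimum count 10), which left 15267. They were scaled by TMM and tested in 1 quasi-likelihood fit of all 16 libraries with edgeR 4.0.16 (R 4.3.3, limma 3.58.1), with Benjamini-Hochberg adjustment over all genes tested and a threshold of 0.05. Every adjusted p in the text comes from that fit unless another is named. SE is the log2 fold change divided by the square root of F, and 95% intervals are SE times the t quantile of the test's residual degrees of freedom (13.8 to 18.5 for the members, so 2.1 to 2.15 SE to each side). CPM used TMM-scaled library sizes, and log2 CPM a prior count of 2. Exact p-values are two-sided permutation tests on mean log2 CPM, with 210 arrangements for 4 against 6 libraries (smallest p 0.00476) and 924 for 6 against 6 (smallest p 0.00216). Scripts were tested on simulated counts. Library totals ran from 13288018 to 22215382 counts, and the SE beside each fold change gives its precision.

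The members, the 54 other genes of the pathways and 12 lists of cell type markers were chosen with earlier results of these data known. Named in full were the 12 members with the largest log2 fold change among those that passed with insulin, the 3 with the smallest p between the insulin-treated groups, and Ppara, Ppargc1a, Creb3l3, Cpt1a, Bdh1 and Acat1, 19 in all. Others are given by role, in counts or group means. Some genes of these pathways are not reported here. Of the gene names, 40704 (97.5%) were found in GENCODE M21, among them all 40 members. Alternatives were other scalings, DESeq2 1.42.0, other filters, only the groups compared, a replicate block and leaving out libraries.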

Additional observations from a re-analysis of the deposited data

Results flagged for a closer look

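In 11 of 123 groups of libraries (40 members and Insr in 3 groups), the highest or lowest library stood apart by Dixon's criterion, where chance gives about 1 in 20, or 6.15. The criterion is the gap to the nearest library divided by the range of the group, both on the log2 CPM scale. The levels below are printed in CPM. No cause was tested for any of them.

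Control-STAM-INS replicate 3 was the lowest library in 4 genes, at 61.3 CPM of Acaa2 with the nearest library at 86.6 (gap over range 0.672), 71.3 CPM of Etfdh with the nearest at 85.8 (0.639), 1.32 CPM of Acaa1b with the nearest at 5.23 (0.652) and 7.19 CPM of Ppara with the nearest at 14.997 (0.633). The falls of Acaa2 and Acaa1b with insulin also passed without that library. Control-STAM-INS replicate 5 was the lowest in Crat, at 54.8 CPM with the nearest at 63.4 (0.635).

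Control-STAM-nonINS replicate 4 stood apart in 4 genes and in both directions. It was the highest in Ehhadh, at 107.8 CPM with the nearest at 93.5 (0.978), and in Eci1, at 52.0 CPM with the nearest at 46.0 (0.866). It was the lowest in Pex11a, at 49.9 CPM with the nearest at 58.4 (0.934), and in Angptl4, at 96.5 CPM with the nearest at 256 (0.898).

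Among the ieIRKO-STAM-INS libraries, replicate 4 was the highest in Acads, at 134.6 CPM with the nearest at 99.96 (0.636), and replicate 2 the lowest in Decr1, at 76.1 CPM with the nearest at 87.8 (0.677).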

How the results depend on the processing

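With insulin, the count of 17 lower members ranged from 12 to 19 when 1 library was left out and from 12 to 22 over the other alternatives (3.76% to 7.43% and 3.83% to 7.99% of all genes lower), 10 of the 17 passed in all 18 alternatives, and no named member changed direction but Crat (-0.1699 to 0.0034 with 1 library left out). The count of 2 higher genes among the other pathway genes was 1 with no filter on low counts, with only the groups compared and with the replicate block, and 0 to 4 with 1 library left out. Against the untreated group, the 18 lower members in ieIRKO-STAM-INS became 10 with only the groups compared (4.48% of all genes lower), 9 with the replicate block (3.85%), and 8 to 21 with 1 library left out (4.45% to 8.14%). Between the insulin-treated groups no member passed under any alternative. Log2 fold changes near 0 changed sign there: Acaa1b (-0.0069 with the replicate block), Acot2 (-0.0514 with the block, -0.0286 without ieIRKO-STAM-INS replicates 2 and 3), Mgll (0.0107 with upper-quartile scaling, 3e-04 with only the groups compared) and Cpt1a (-0.0144 with the block). With 1 library left out the ranges were -0.1198 to 0.3135 for Acaa1b, -0.1263 to 0.1647 for Acot2, -0.0281 to 0.0339 for Mgll, -0.0926 to 0.1512 for Cpt1a, -0.008 to 0.1739 for Pex11a, -0.1349 to 0.0416 for Acsl1 and -0.041 to 0.0218 for Acat1. The cause was not tested. Whether replicate numbers pair the samples was not settled, since so few and weak correlations can neither show nor exclude it. With insulin the correlation of deviations between same-numbered libraries was over 0.1 in 2 of 4 pairs (-0.007, -0.024, 0.117 and 0.179). In those 2 the library correlated best with its own number, and in the others it did not. With the block, 11 of the 17 members passed again, without Acsl1, Slc27a2, Decr1, Etfb, Pex11a and Pdk4, and against the untreated group 9 of the 18, without Acsl1, Crat, Acadl, Acadm, Eci2, Etfb, Acaa1b, Pex11a and Pdk4.

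Over all genes, 1602 passed with insulin, 925 with the block and 824 without Control-STAM-nonINS replicate 1. Against the untreated group 2036 passed, 1038 with only the groups compared, 933 with the block, 1093 without Control-STAM-nonINS replicate 1 and 1270 without ieIRKO-STAM-INS replicates 2 and 3. Between the insulin-treated groups 34 passed by edgeR and 123 by DESeq2. Whether depth limits any member was not tested.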

Other observations

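Cell type markers outside the pathways were read in the same tests. Paneth cell markers (5 of 5 tested) included 2 higher with insulin in the control genotype and 4 lower with the ieIRKO label under insulin (3 without ieIRKO-STAM-INS replicates 2 and 3). They summed to 3587 to 6106 CPM in untreated controls, 5033 to 9084 in treated controls and 1704 to 2862 in the ieIRKO group. In the same order, B and plasma cell markers (6 of 6 tested, 0 called in either of these comparisons and 3 higher in the ieIRKO group than in untreated controls, or 2 without replicates 2 and 3) summed to 717.6 to 1771, 959.2 to 1541 and 1655 to 3115 CPM. Of 6 markers of epithelium in general 1 was lower with insulin. Markers of crypt cells, goblet cells and smooth muscle (6 each), macrophages (4) and hepatocytes (4 of 5 tested) had 0 calls in any comparison by edgeR's test. Of 6 pancreatic acinar markers only Cela1 passed the filter and was lower with insulin, and Cela2a, Cpa1, Pnlip and Amy2a5 had no count in any library.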
